A study of Homo sapiens with 4 samples.

Results

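The keratin genes are the protein-coding genes named KRT with a number from 1 to 86, and 54 of them were found among the 19229 autosomal protein-coding genes of GENCODE release 44 on GRCh37, the build also known as hg19. Symbols with a letter behind the number, such as KRT6A, were counted as members. The type II keratins and KRT18 lie on chromosome 12 (27 genes), and the other type I keratins lie on chromosome 17 (27 genes). DNA methylation was measured by reduced representation bisulfite sequencing (RRBS) in clones of SKOV3, an established line of ovarian cancer cells whose unmodified form is mesenchymal-like (M), to ask what differs once the loss of the receptor LY75 has given the cells an epithelial phenotype (E). The M clones were shC-S, which carries a control shRNA, and LY75-R-S (labelled Ly75-OV-S), in which LY75 is expressed again in cells that carry the LY75 shRNA. The E clones lost LY75 through shRNA in sh-LY75-S and through CRISPR in LY75-KO-S. All 4 are derivatives of the same cell line with 1 library each, so no clone had a replicate. The tables hold no values per library, so no difference was tested against a spread between samples, also not in the comparison that sets 2 clones against 2.

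The deposited data are 3 lists of tiles, which are windows of 1000 bp of the genome. Every listed tile passes the thresholds that the names of the tables carry, a 25 percentage point difference in methylation between the libraries compared and a q-value of 0.01. The comparison shC-S vs. sh-LY75-S, called the knockdown comparison here, and LY75-R-S vs. LY75-KO-S, called the knockout comparison here, share no library. The third, the mix, was taken as both M clones against both E clones and so uses the same libraries again. The M clone of the knockout comparison carries the LY75 shRNA, which the knockout clone does not. The size and direction of each difference are the authors' own results and are not given here, so only the place of each listed tile is described. A tile that is not listed may have differed less or may have been read too little, and these cases cannot be told apart because the read depth is unknown. To see which tiles RRBS could have read at all, the genome was cut in silico at the MspI site CCGG, and a tile was called reachable when a read of 50 bases from either end of a fragment of 40 to 220 bp covers at least 1 CpG in it. Of the listed autosomal tiles, 93.4% were reachable in the knockdown comparison, 90.4% in the knockout comparison and 94.6% in the mix. A tile was assigned to a keratin when it overlapped the gene record or the 5 kb on either side of it, and the start of a gene was that of its canonical transcript.

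Keratins build the intermediate filaments of epithelial cells, in which a type I and a type II chain always pair. KRT8 with KRT18 forms the filaments of simple epithelia, often joined by KRT7 and KRT19, and KRT20 is typical of the gut lining. KRT5 and KRT14 mark basal cells of stratified epithelia, KRT6, KRT16 and KRT17 rise under stress, KRT1 and KRT10 mark suprabasal cells, and further members build the inner root sheath and the hair shaft. Simple keratins are widely used as markers of an epithelial phenotype.

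The following MspI fragments are shown because RRBS reads their ends in some of the tiles that the comparisons turn on. They were taken from GRCh37, are given 5′ to 3′ on the plus strand, and have each CpG, the site at which methylation is read, in capitals. The KRT8 fragment lies in a tile of its first 2 kb, the KRT77 fragment lies in a tile listed in all 3 tables, the KRT23 fragment lies in a tile listed in the knockout comparison and the mix, and the KRT19 fragment lies in the start tile of a simple keratin that was listed nowhere.
KRT8, chr12:53297556-53297768: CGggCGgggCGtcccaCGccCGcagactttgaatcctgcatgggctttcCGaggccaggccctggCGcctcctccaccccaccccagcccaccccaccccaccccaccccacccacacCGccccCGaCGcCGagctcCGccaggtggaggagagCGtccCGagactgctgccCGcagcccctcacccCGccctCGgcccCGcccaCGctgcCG
KRT77, chr12:53098560-53098662: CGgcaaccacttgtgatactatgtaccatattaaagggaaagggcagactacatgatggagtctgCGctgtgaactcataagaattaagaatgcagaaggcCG
KRT23, chr17:39092801-39092847: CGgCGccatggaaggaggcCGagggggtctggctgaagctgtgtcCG
KRT19, chr17:39684015-39684066: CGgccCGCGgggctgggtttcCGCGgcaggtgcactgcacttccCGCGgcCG
The KRT8 fragment has 20 CpGs in 213 bp, of which 12 lie within 50 bases of an end and so within the reads. In the other fragments every CpG lies within the reads. The KRT77 fragment holds 3 CpGs in 103 bp, and 2 of these are parts of the MspI sites at its ends. The KRT23 fragment holds 4 CpGs in 47 bp, and the KRT19 fragment 8 in 52 bp.

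Over all keratins, 33 of the 54 genes had a listed tile in at least 1 table and 21 had none. This count was not made for all genes, so the keratins are set beside them for each table separately. In the knockdown comparison 24 keratins (44.4%) had a listed tile, where 60.3% of all autosomal protein-coding genes did. Of the 54, 18 (33.3%) had one in the knockout comparison, beside 46.7% of all genes. In the mix the number was 14 (25.9%), beside 38.2%. Per gene, the shares of the keratins lay below those of all genes in each table. Their windows were also shorter, with a median of 18 tiles against 39, and held a median of 4 reachable tiles against 10.

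Counted per reachable tile, the shares of the keratins lay above those of all genes. The keratin windows together held 1006 distinct tiles, of which 210 were reachable. Of these, 35 (16.7%, 95% Wilson interval 12.2 to 22.3%) were listed in the knockdown comparison, beside 11.5% of the reachable tiles around all genes. The knockout comparison listed 21 (10.0%, 6.63 to 14.8%), beside 6.04%. In the mix 13 (6.19%, 3.65 to 10.3%) were listed, beside 4.8%. These intervals cover counting error only, neighbouring tiles are not independent, and no test of the keratins against other genes was made.

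**Figure D1:**
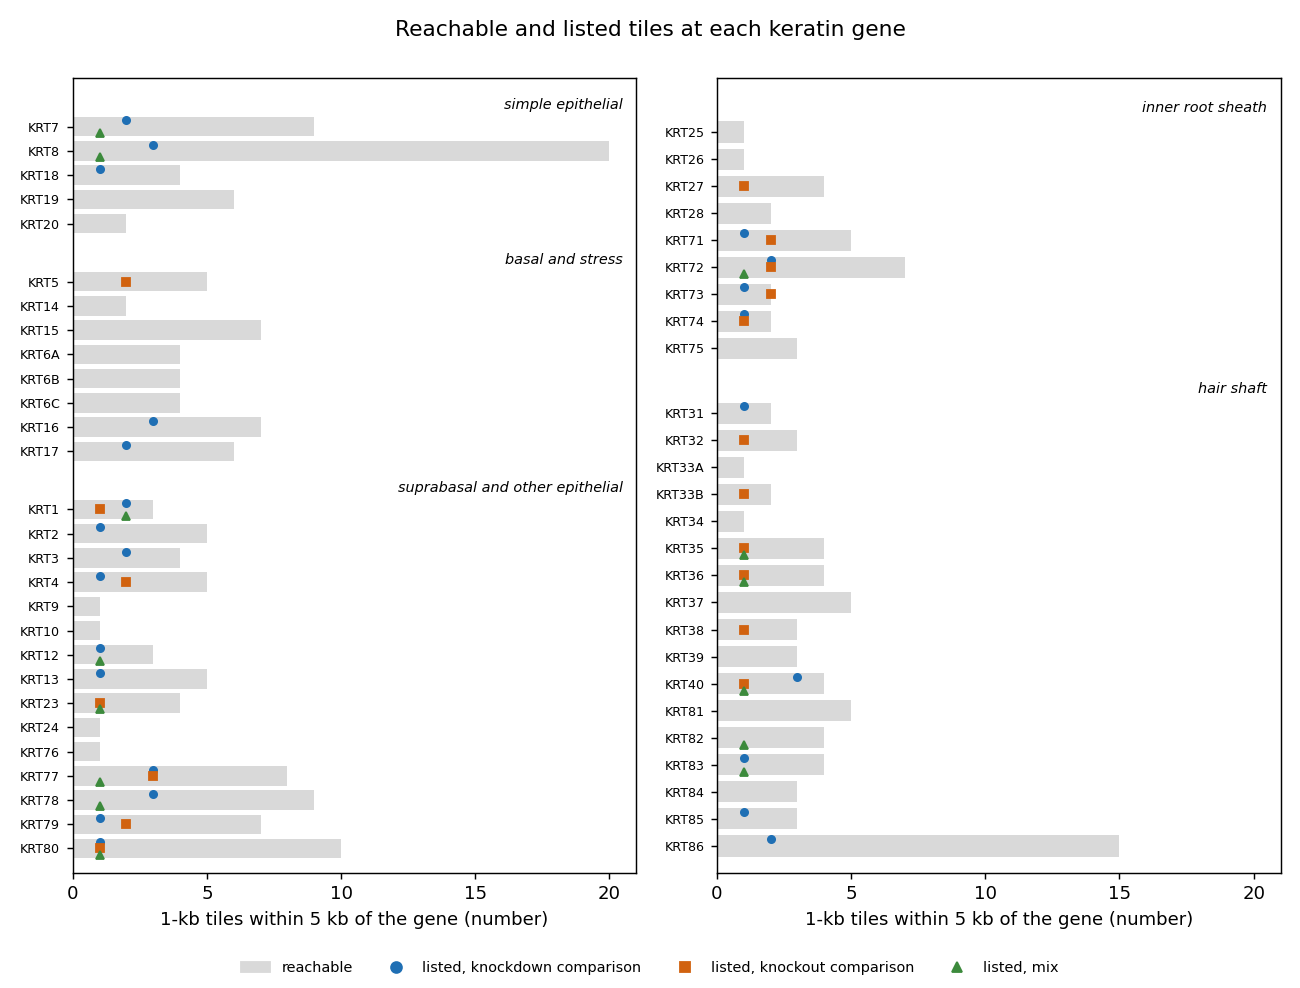
Tiles at each of the 54 keratin genes, by group; the x axis is the number of 1-kb tiles within 5 kb of the gene. Grey bars are reachable tiles (1 to 20 per gene), and circles, squares and triangles are the tiles listed in the knockdown comparison, the knockout comparison and the mix, drawn only where above 0; KRT77 has the most listed tiles, and no simple epithelial keratin has a square.

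Some simple epithelial keratins were listed in the knockdown comparison and none in the knockout comparison. KRT7, KRT8 and KRT18 had 2, 3 and 1 listed tiles in the knockdown comparison. In the knockout comparison none of the 5 genes had any, and in the mix KRT7 and KRT8 had 1 tile each. The shares of the 5 genes with a listed tile were 60% in the knockdown comparison and 40% in the mix. These lay near the 60.3% and 38.2% of all genes. In the knockout comparison the share was 0%, beside 46.7% of all genes. KRT19 and KRT20 were listed nowhere, although 6 and 2 tiles of their windows were reachable.

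KRT7, the type II keratin of ductal and glandular epithelia, starts in a tile with 72 CpGs (chr12:52627001-52628000), which also holds exon sequence. This tile was listed in the knockdown comparison and in the mix. The next tile downstream, which overlaps an exon and has 20 CpGs, 2 of them within the reads, was listed in the knockdown comparison alone. The tile just upstream of the canonical start holds 38 CpGs and the start of the longer gene record. It was reachable, but was in no list. The listed tiles of KRT7 thus lay at the canonical start and just behind it. The next tiles downstream were not reachable, so how far the difference extends into the gene is unknown.

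KRT8, the partner of KRT18, had a listed tile behind its start (chr12:53297001-53298000, 56 CpGs), again in the knockdown comparison and the mix. The tile is intronic in the canonical transcript, and exons of other transcripts were not considered. The tile that holds the start of KRT8, with 40 CpGs, was reachable and not listed. A further tile (chr12:53317001-53318000, 33 CpGs) was listed in the knockdown comparison. It lies 18141 bp upstream of the canonical start, within the long gene record of KRT8. The third KRT8 tile is shared with KRT18, whose gene starts within the long record of KRT8. It ends 902 bp upstream of the KRT18 start (chr12:53341001-53342000, 17 CpGs) and was listed in the knockdown comparison alone. The start tile of KRT18 itself, with 59 CpGs, was in no list.

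KRT19, the smallest keratin, has the most CpGs of any keratin in its start tile (84). Its reachable start tile and the reachable tile behind it (43 CpGs) were in no list. KRT20 has 23 CpGs in its start tile, which is not reachable, and the 2 reachable tiles of its window were in no list. At the starts of the simple keratins the tables thus listed tiles of KRT7, tiles beside the starts of KRT8 and KRT18, and none of KRT19 or KRT20.

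**Figure D2:**
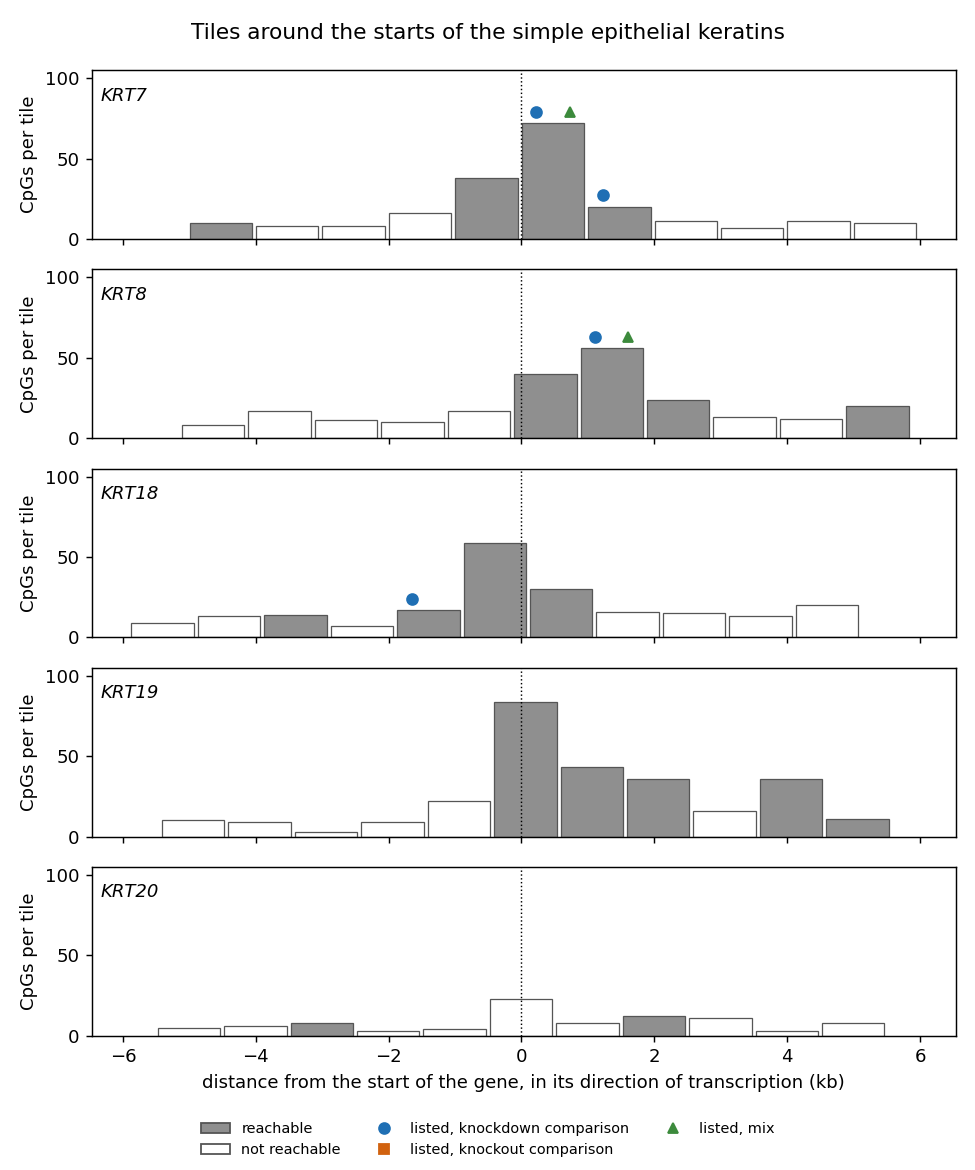
CpGs per 1-kb tile (y axis) against distance from the start of each simple epithelial keratin in kb, in the direction of transcription. Grey tiles are reachable and white ones are not; circles and triangles mark tiles listed in the knockdown comparison and in the mix. The start tile of KRT7 (72 CpGs) is listed, while those of KRT8 (40), KRT18 (59) and KRT19 (84) are not, and no tile is listed in the knockout comparison.

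Set against the other 49 keratins per reachable tile, the simple keratins lay furthest below them in the knockout comparison. In the knockdown comparison 5 of 37 reachable tiles of simple keratins were listed (13.5%, 5.91 to 28.0%), beside 30 of 173 of the others (17.3%, 12.4 to 23.7%). In the mix the shares were 5.41% (1.5 to 17.7%) and 6.36% (3.59 to 11.0%). In the knockout comparison 0 of 37 tiles of simple keratins were listed, which allows a share of up to 8.11% for counting error alone, beside 21 of 173 of the others (12.1%, 8.08 to 17.8%). The share over all genes in that comparison, 6.04%, lies under this limit, so an average share cannot be told from 0 with 37 tiles. Per gene the order differed outside the knockout comparison. In the knockdown comparison 60% of the 5 simple keratins had a listed tile, beside 42.9% of the others. In the mix it was 40% beside 24.5%, and in the knockout comparison 0% beside 36.7%. Within 2 kb of the start the shares of the simple keratins were 60%, 40% and 0% in that order. Those of the others were 20.4%, 14.3% and 8.16%, and of all genes 26.1%, 12.8% and 10.9%. The simple keratins also had more reachable tiles, a median of 6 per gene against 4 in the others. Their start tiles held a median of 59 CpGs against 17. The difference between the simple and the other keratins was not tested. Of the reachable tiles, 8 lie in windows of both, counted here with the simple keratins, and none of these was listed.

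Of the 35 reachable tiles of the basal and stress keratins, 3 (8.57%, 2.96 to 22.4%) were listed in the knockdown comparison, 1 (2.86%, 0.506 to 14.5%) in the knockout comparison and 0 in the mix, which allows up to 8.57%. Around all genes the shares were 11.5%, 6.04% and 4.8%, which lie within these intervals or under this limit. The low share of this group in the knockout comparison, like that of the simple keratins, thus cannot be told from that of all genes. KRT14, KRT15, KRT6A, KRT6B and KRT6C had none in any table. KRT5, the type II keratin of basal cells, had 2 tiles listed in the knockout comparison, and 1 of them lies 823 bp upstream of its start (chr12:52915001-52916000, 19 CpGs). KRT16, a keratin of wounded epidermis, had 3 tiles in the knockdown comparison, among them the one that holds its start (chr17:39769001-39770000, 20 CpGs). KRT17 lies next to KRT16 and had 2 tiles in that comparison, both shared with the window of KRT16. In the mix none of the 8 basal and stress keratins had a listed tile, beside 38.2% of all genes. The shares were 25% in the knockdown comparison and 12.5% in the knockout comparison, beside 60.3% and 46.7% of all genes.

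The suprabasal and other epithelial keratins held the most listed tiles of any group. Of 15 genes, 10 (66.7%) had a listed tile in the knockdown comparison, 6 (40%) in the knockout comparison and 6 (40%) in the mix, near the shares of 60.3%, 46.7% and 38.2% over all genes. Per reachable tile, where all genes had 11.5%, 6.04% and 4.8%, their shares were 22.2% (13.7 to 33.9%), 14.3% (7.70 to 25%) and 9.52% (4.44 to 19.3%) in that order. The interval in the mix holds the share of all genes, and the differences from all genes were not tested. KRT9, KRT10, KRT24 and KRT76 had no listed tile, and each has only 1 reachable tile.

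KRT77, a type II keratin of sweat glands, led the keratins with 3, 3 and 1 listed tiles. The tile that ends 693 bp upstream of its start (chr12:53098001-53099000, 12 CpGs) was listed in all 3 tables. The tile behind it, further upstream, was listed in the knockdown comparison alone. In the gene, an intronic tile that begins 4308 bp past the start was listed in both single comparisons.

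KRT1, the type II keratin of the spinous layer, had 2 listed tiles. One begins 5191 bp downstream of its start (chr12:53068001-53069000, 9 CpGs), overlaps an exon, and was listed in all 3 tables. The other ends 1810 bp upstream of the start (9 CpGs) and was listed in the knockdown comparison and the mix. KRT1 and KRT77 were the only keratins with a tile in all 3 lists. The share of all genes with such a tile was not counted, and the mix uses the same libraries as the single comparisons. KRT10, the partner of KRT1, had none.

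KRT78 had 3 tiles in the knockdown comparison, among them the tile that holds its start (20 CpGs) and the next one into the gene (14 CpGs), of which the latter was also in the mix. KRT80 was listed at its start (chr12:52585001-52586000, 26 CpGs) in the knockdown comparison and the mix, but in the knockout comparison at an exon 17798 bp downstream. KRT4, the type II keratin of oral and esophageal mucosa, was listed at its start (20 CpGs) in the knockdown comparison, and at 2 other tiles in the knockout comparison. KRT13, the partner of KRT4, had an exonic tile that begins 1864 bp past its start (24 CpGs) in the knockdown comparison. KRT79 had a tile that begins 95 bp past its start (27 CpGs) in the same comparison, and 2 others in the knockout comparison, 1 at an exon of KRT79 (17 CpGs) and 1 between KRT79 and KRT4 that belongs to the windows of both (8 CpGs). The corneal pair KRT3 and KRT12 had 2 and 1 tiles in the knockdown comparison, and the KRT12 tile was also in the mix. KRT2, a keratin of the upper epidermis, had 1 exonic tile in the knockdown comparison. KRT23, a type I keratin of glandular epithelia, went the other way: its tile that begins 898 bp past the start (chr17:39092001-39093000, 24 CpGs) was listed in the knockout comparison and the mix and not in the knockdown comparison.

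The keratins grouped here under the inner root sheath, the layer that moulds the growing hair, were listed chiefly on chromosome 12. KRT75, a keratin of the hair follicle, was counted with this group. KRT71, KRT72, KRT73 and KRT74 each had a tile listed in both single comparisons, while KRT25, KRT26, KRT28 and KRT75 had none in any table. KRT27 had 1 tile in the knockout comparison (it begins 1802 bp past the gene's start, 39 CpGs). Of 26 reachable tiles in these windows, 5 (19.2%, 8.51 to 37.9%) were listed in the knockdown comparison, 7 (26.9%, 13.7 to 46.1%) in the knockout comparison and 1 (3.85%, 0.682 to 18.9%) in the mix. Around all genes these shares were 11.5%, 6.04% and 4.8%. Per gene, 44.4%, 55.6% and 11.1% of the group had a listed tile, beside 60.3%, 46.7% and 38.2% of all genes. The differences from all genes were not tested. Apart from KRT27, no keratin of this group had a listed tile within 2 kb of its start.

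Among the 17 keratins of the hair shaft, 5 (29.4%) had a listed tile in the knockdown comparison, 6 (35.3%) in the knockout comparison and 5 (29.4%) in the mix, beside 60.3%, 46.7% and 38.2% of all genes. Per reachable tile their shares were 13.6%, 6.78% and 6.78%, near those around all genes (11.5%, 6.04% and 4.8%). Their start tiles were poor in CpGs, with a median of 12 against 59 in the simple keratins. KRT40 had 3, 1 and 1 listed tiles, among them its start tile (chr17:39140001-39141000, 16 CpGs), which was in the lists of the knockdown comparison and the mix. KRT85 had a tile that ends 736 bp upstream of its start (8 CpGs) in the knockdown comparison. KRT82 had a tile that begins 119 bp past its start (17 CpGs) that was listed in the mix and in neither single comparison, the only keratin tile of this kind. Of the remaining hair keratins, KRT31 and KRT86 were listed in the knockdown comparison alone, with 1 and 2 tiles, and KRT83 in that comparison and the mix, at 1 exonic tile. KRT32, KRT33B and KRT38 had 1 tile each in the knockout comparison, and KRT35 and KRT36 share 1 tile (chr17:39642001-39643000, 25 CpGs), which was listed there and in the mix. KRT33A, KRT34, KRT37, KRT39, KRT81 and KRT84 had no listed tile.

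**Figure D3:**
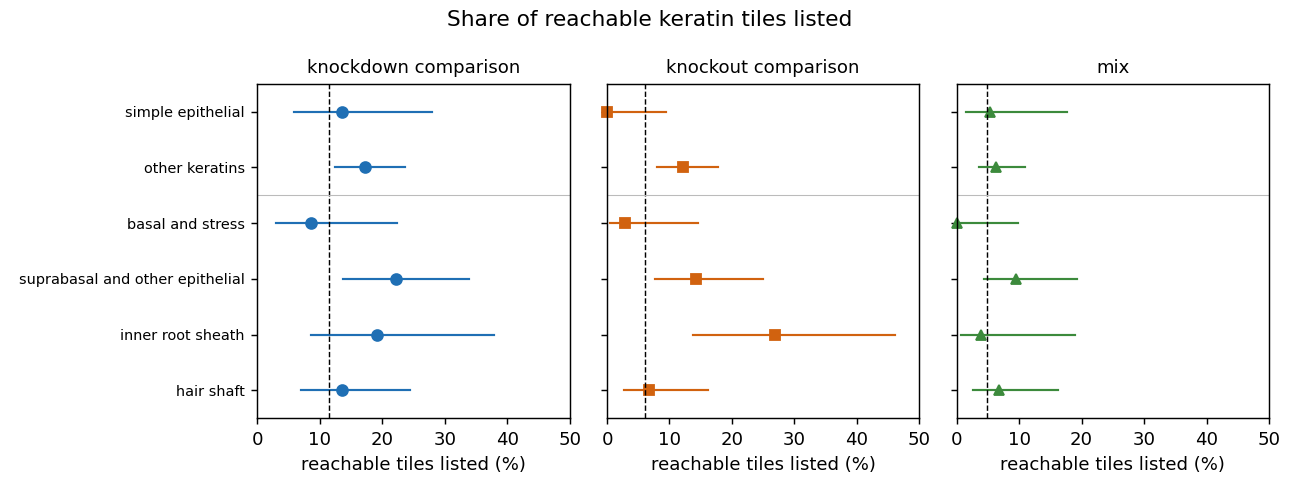
Percent of reachable 1-kb tiles listed (x axis) for each keratin group in each table, with 95% Wilson intervals as bars; the dashed line is the share around all protein-coding genes (11.5%, 6.04% and 4.8%). The simple epithelial keratins sit at 0 in the knockout comparison. The suprabasal keratins, the hair shaft keratins and the other keratins as a whole lie to the right of the line in each panel.

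Near the starts of the genes more keratins were listed in the knockdown than in the knockout comparison. In the knockdown comparison 13 keratins (24.1%) had a listed tile within 2 kb of the start, beside 26.1% of all genes. Only 4 did in the knockout comparison (7.41%), beside 10.9%, namely KRT5, KRT23, KRT27 and KRT77. In the mix 9 did (16.7%), beside 12.8%. The 3 shares lie on either side of the background and near it. A reachable tile within 2 kb of the start was present for 48 keratins (88.9%) and for 88.6% of all genes. A listed tile held the start itself in 6 cases in the knockdown comparison, namely KRT4, KRT7, KRT16, KRT40, KRT78 and KRT80, in 3 in the mix (KRT7, KRT40 and KRT80) and in 0 in the knockout comparison. The share of all genes listed at the start tile was not counted, so these counts have no background beside them.

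In all, 53 distinct keratin tiles were listed. By the canonical transcripts alone, 32 overlapped a keratin exon, 5 lay in introns and 16 lay outside. The median distance from the nearest keratin start was 3384 bp in the knockdown comparison, 4767 bp in the knockout comparison and 879 bp in the mix. The listed tiles had medians of 16.5, 13.5 and 16.5 CpGs, beside a median of 16 for the reachable keratin tiles in no list. The classes and distances were not counted for unlisted tiles or for all genes, so they have no background beside them. Among the reachable keratin tiles with 40 or more CpGs, 4 of 16 were listed in the knockdown comparison, namely those of KRT7 and KRT8 described above, 1 at an exon of KRT86 (69 CpGs) and 1 at an exon of KRT3 (43 CpGs). In the knockout comparison 0 of the 16 were listed, and in the mix 2, those of KRT7 and KRT8. Around all genes the shares for such CpG-rich tiles were 16.1%, 3.41% and 6.93%, so there too the knockout comparison had the lower share of the single comparisons. With 16 keratin tiles, a count of 0 cannot be told from a share of 3.41%.

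**Figure D4:**
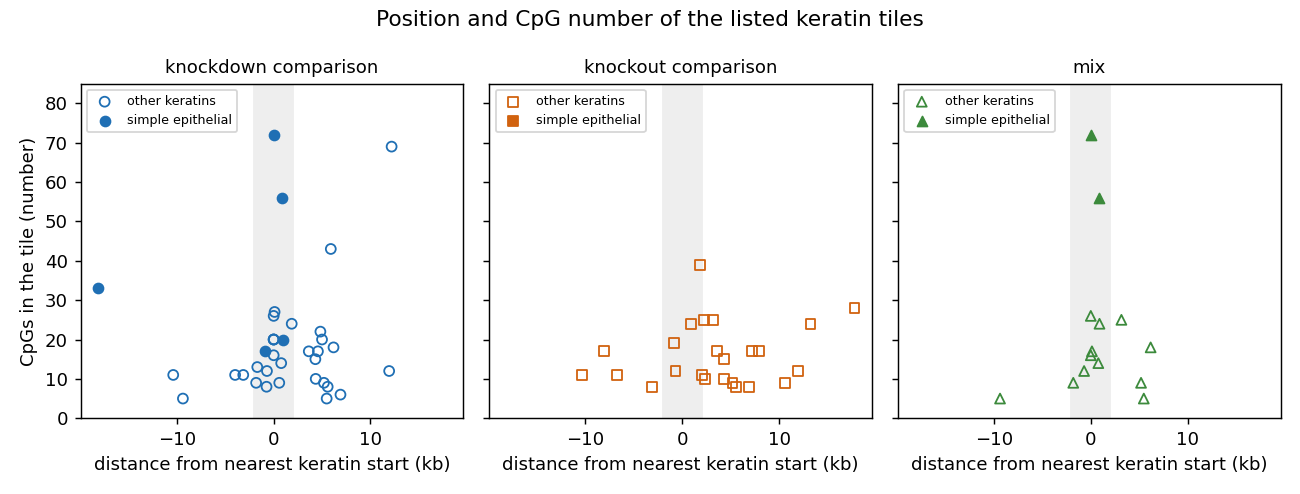
CpGs in each listed keratin tile (y axis) against its distance from the nearest keratin start in kb (x axis), for each table; filled marks are tiles nearest to a simple epithelial keratin, and the grey band spans 2 kb on either side of the start. In the knockdown comparison and the mix the tiles of KRT7 (72 CpGs) and KRT8 (56) stand above the rest near the start, while in the knockout comparison no tile exceeds 39 CpGs.

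The single comparisons shared 8 keratin tiles, which are 22.2% of the 36 listed in the knockdown comparison and 33.3% of the 24 listed in the knockout comparison. Around all genes the shared tiles were 15.1% and 27.8% of the lists. Of the 8, 7 lie on chromosome 12, in the windows of KRT71, KRT72, KRT73, KRT74, KRT1 and KRT77, and 1 lies on chromosome 17 at an exon of KRT40. Per gene, 10 keratins (18.5%) had listed tiles in both single comparisons, 14 (25.9%) in the knockdown comparison alone and 8 (14.8%) in the knockout comparison alone, beside 36.8%, 23.5% and 9.83% of all genes. The mix, which uses the same libraries, listed 14 keratin tiles.

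The chromosome 12 cluster held 38 of the 53 listed tiles, and also 139 of the 210 reachable tiles. The knockdown comparison listed 27 of its 139 reachable tiles (19.4%, 13.7 to 26.8%), beside 8 of 71 in the chromosome 17 cluster (11.3%, 5.82 to 20.7%). The shares were 10.8% and 8.45% in the knockout comparison, and in the mix 7.19% and 4.23%. Around all genes 11.5% were listed in the knockdown comparison, 6.04% in the knockout comparison and 4.8% in the mix. The intervals overlap in the knockdown comparison, and the difference between the clusters was not tested.

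The proteins that tie keratin filaments to junctions and to each other were counted from a list of 16 genes: the plakins DSP, PLEC, PPL, EVPL, EPPK1 and DST, the armadillo proteins JUP, PKP1, PKP2 and PKP3, and the desmosomal cadherins DSG1, DSG2, DSG3, DSC1, DSC2 and DSC3. Of these, 13 (81.2%) had a listed tile in their windows in the knockdown comparison, 8 (50.0%) in the knockout comparison and 10 (62.5%) in the mix, beside 60.3%, 46.7% and 38.2% of all genes. Their windows held a median of 15.5 reachable tiles, against 10 for all genes. Within 2 kb of the start the numbers were 5 (31.2%), 3 (18.8%) and 4 (25%), beside 26.1%, 10.9% and 12.8% of all genes, and none of the 16 had such a tile in all 3 tables.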

How the data were processed

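RRBS libraries of 4 SKOV3 clones, 1 per clone, were compared by the authors. Per the submitters' processing notes, reads were handled with Trim Galore 0.4.1, Bismark 0.16.1, FastQC and methylKit, and the build was hg19. The authors' deposited tables hold, for each tile, its chromosome, start and end, a strand, a p-value, a q-value and a difference in percent methylation. The last 3 are results of the authors' own comparisons and were not used, beyond checking that each row passes 25 percentage points and a q-value of 0.01, the thresholds in the tables' names; the study's methods name a looser limit on the adjusted p-value. The number of columns with values of single samples was 0, so the depth per library is unknown.

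Gene records and canonical transcripts came from GENCODE release 44 on GRCh37, and 251 genes without a canonical transcript there were given the start of the gene record. Reachable tiles were computed from the GRCh37 sequence; the digest and the window counts were checked on simulated data. Shares carry 95% Wilson intervals, and the limit for a count of 0 is 3 counts. Reads without molecular identifiers can be copies, so all intervals cover counting error only. No test was made. Some fragment sequences are not reported here. KRT222 was left out as outside the numbering.

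Members, groups and lists were chosen with earlier results of these data known. Genes named in the text were the 5 simple keratins, every keratin with a listed tile within 2 kb of its start, the 5 with most listed tiles, those with a tile in all 3 tables, and linker genes with such a tile near the start in all 3; the others were named to account for all members. Alternatives changed the window, the fragment sizes, the groups and the definition of the start. The computations ran in Python 3.11.15 with scipy 1.17.1, pandas 2.3.3 and numpy 2.4.6, and plots were drawn with matplotlib 3.10.9.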

Additional observations from a re-analysis of the deposited data

How the results depend on the processing

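Of 57 alternative values, 4 counts moved by over 1.5 times and 2 differences between simple and other keratins changed sign. When only the tile that holds the start was counted, the keratins listed at their start went from 13 to 6 in the knockdown comparison, from 4 to 0 in the knockout comparison and from 9 to 3 in the mix, as fewer tiles were counted. With the gene span alone, the tiles listed in both single comparisons went from 8 to 5. The difference between simple and other keratins in percent of reachable tiles listed was -3.83 percentage points in the knockdown comparison and lay between -6.47 and -0.768 under the alternatives. It was -12.1 in the knockout comparison, between -13.1 and -8.03. In the mix it was -0.953, and it changed sign to 2.18 with KRT23 and KRT80 among the simple keratins and to 0.975 with windows around the canonical transcript, an alternative that was chosen after seeing the data together with the outer gene start. In the knockout comparison the share of the simple keratins was 0 under each alternative except with KRT23 and KRT80 added, where it was 3.92%. No paired analysis was possible because the tables hold no values per library. A stricter threshold on the differences was not run, as their values were not used. Depth per tile is unknown, so a tile that is not listed is not shown to be unchanged.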
